A study of Bos taurus with 8 samples.

Results

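The change around calving in cows fed the dry-period diet labelled S was read directly from 2 of the 8 arrays of this study. They are the arrays whose sample names pair day +7 with day -14 inside diet S, and they were described across the 13080 rows (genes, or single features with no gene name) that had a value on all 8 arrays. Array 1 held RNA of cow 7631 at day +7 in Cy5 and of cow 8041 at day -14 in Cy3. Array 2 held cow 7944 at day -14 in Cy5 and cow 7472 at day +7 in Cy3. The 2 days on each array therefore came from different cows, and an array ratio holds the difference between 2 animals as well as that between 2 days, which cannot be told apart on it.

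All samples were blood polymorphonuclear leukocytes (PMNL, mostly neutrophils) of Holstein cows, isolated from tail blood by centrifugation and lysis of red cells. There were 8 cows, 4 on each diet, sampled at day -14 (within 2 days) and day +7 relative to calving. 1 diet was based on wheat straw (1.34 Mcal of net energy per kg, at least 100% of the requirement) and the other on corn silage (1.62 Mcal per kg, over 140%), both fed in a dry period of 45 days; the labels do not say which of them is S and which is M. After calving all cows ate the same lactation diet (1.69 Mcal per kg), so day +7 differs from day -14 in diet as well as in stage. Cow age was not analysed here. The other arrays paired both days of 1 cow in diet M (cow 7821 on the first, 7973 on the second), or the 2 diets at 1 day.

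Neutrophils are made in the bone marrow and packed there with granules, stores of antimicrobial proteins and enzymes that are loaded early and in sequence, after which the genes for them are shut off. In blood the mature cells roll on selectins, follow chemokines, sense microbes through Toll-like receptors and kill by granule release and the NADPH oxidase. Around calving the cow passes through a rise in glucocorticoids and a loss of energy balance, and the period is known for altered neutrophil function and for mastitis and metritis. In a bulk measure such as this one, fewer cells of a type and less RNA per cell cannot be told apart.

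Values are log2 ratios, day +7 over day -14, after a correction of each array for spot brightness. Neither the labels nor the files say which dye is on top of the ratio. Signs are given for Cy5 over Cy3, so that a positive value is higher at day +7. On the other reading every sign turns, and counts of positive and negative rows change places. Sizes, errors and total counts stay. Both diet S columns were assumed to carry 1 dye on top. The estimate from all 8 arrays gave the 2 diet S arrays 75% of the weight. The rest came from the 6 other arrays, which lead from one day to the other through diet M. That second path carried the opposite samples of the same 4 cows, 7944 and 8041 at day +7 and 7631 and 7472 at day -14, and shared no RNA with the direct arrays.

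1 array stood apart. The second array that sets the diets side by side at day +7, with cow 7977 of diet M over cow 8041 of diet S, had an SD of 1.49 over all rows, whereas the other 7 lay between 0.58 and 0.90 and the 2 diet S arrays at 0.89 and 0.88. In the diet S estimate it enters only the path through the 6 other arrays, and it also enters the difference between the diets. The diet S arrays gave values for 32580 and 30089 of 43803 features. Among defining neutrophil markers, CXCR1, FCGR3A, S100A8, S100A9 and ITGAM had values on all 8 arrays, CXCR2 had values on 7, and CSF3R had no named feature. Ratios do not give the share of any cell type in a sample.

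The 2 diet S arrays did not show a shared day change over all rows. Across rows their ratios had a Pearson correlation of -0.12, and their mean had one of 0.001 with the path through the 6 other arrays (13080 rows, which are not independent). A total of 2679 rows (20.5%) was positive on both arrays and 2924 (22.4%) negative on both. No row was called with limma at an adjusted p under 0.05 (0% of 13080, smallest adjusted p 0.999). An unadjusted p under 0.05 was reached by 104 positive rows (0.795%) and 433 negative rows (3.31%), 4.11% together. Without the array that stood apart, 177 positive and 399 negative rows had such a p, and 0 passed the adjusted threshold. With both paths weighted equally, which counts each diet S cow once at each day, there were 59 and 185; this weighting was chosen after the data were seen.

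Large ratios leaned to the negative side where the arrays shared a sign. Both arrays reached 2-fold in the positive direction for 38 rows (0.291%) and in the negative direction for 255 rows (1.95%). A further 425 rows passed 2-fold on both arrays with opposite signs, 244 of them positive on array 1 and negative on array 2. Of the 255 negative rows, 157 were also negative on the path through the 6 other arrays, where 54.5% of all rows were negative. Of the 38 positive rows, 15 were positive there. Ratios of 16-fold or more were mostly on array 1, with 72 positive and 7 negative rows, against 10 and 14 on array 2. The scatter of both arrays shows the large positive ratios lying along the array 1 axis.

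**Figure D1:**
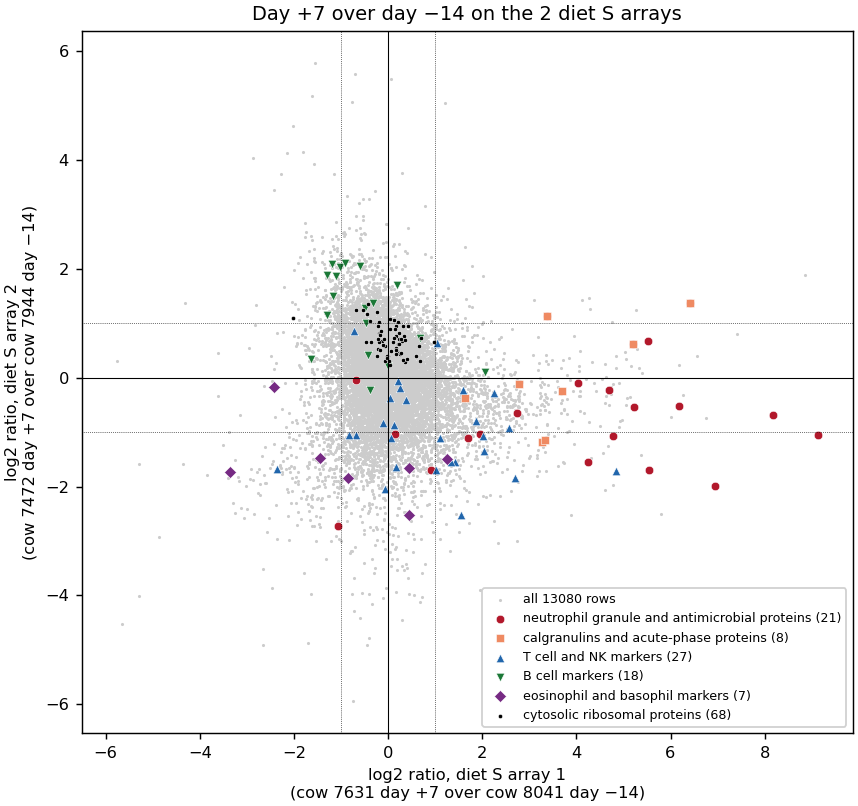
Log2 ratio of day +7 over day -14 on diet S array 1 (horizontal) and array 2 (vertical) for 13080 rows in grey, with members of 6 gene lists coloured; dotted lines mark 2-fold. Granule and acute-phase genes reach far to the right with array 2 values near or under 0, B cell markers lie to the upper left, and ribosomal protein genes lie above 0 on array 2.

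Genes negative on both diet S arrays included receptors, enzymes and membrane proteins of varied roles. P2RY12, the ADP receptor best known from platelets, was at -3.12 on array 1, -2.39 on array 2 and -1.98 over the 6 other arrays. All 3 values were low, and the estimate was -2.56 ± 0.44 (SE; limma, adjusted p = 0.999). SEMA4D, a semaphorin of lymphocytes and platelets, stood at -1.96 and -2.31 on the diet S arrays and at -1.52 over the others, an estimate of -1.98 ± 0.40. FAS, the death receptor that starts apoptosis on binding its ligand, had -1.51, -2.22 and -1.34 (estimate -1.73 ± 0.37). For these 3 genes the diet S arrays lay within 1 log2 unit of each other and the other path had the same sign. They were picked by smallest p with 1 sign on both arrays, so this closeness follows in part from the pick.

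MARCKS, a substrate of protein kinase C at the membrane and the actin skeleton, was even closer between arrays, -2.39 and -2.35, but at -0.82 over the 6 others (estimate -1.98 ± 0.46). DGAT2, which makes triglyceride, had ratios of -1.37 and -1.96 and -0.85 over the other path (-1.46 ± 0.31). All 3 features of DGAT2 were negative. TMEM140, a membrane protein known to be induced by interferon in human cells, had -1.71 and -2.32, with -1.03 over the others (-1.77 ± 0.35). RTN2, a reticulon of the endoplasmic reticulum, was at -2.26 and -1.73 with -1.35 over the others (-1.84 ± 0.37). ARSG, a lysosomal sulfatase, was at -2.53 and -2.57 with -1.76 (-2.35 ± 0.52).

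CPB2, the carboxypeptidase that slows clot lysis, was read from a dim feature (low spot brightness), at -5.29 on array 1 and -4.01 on array 2. Over the 6 other arrays it was at -0.96, so the 2 paths differed more than the 2 arrays did (estimate -3.73 ± 0.78). SDSL, a serine dehydratase-like enzyme, was likewise at -4.86 and -2.93 against -0.65, and GADD45G, a stress-response gene, at -3.06 and -2.59 against -1.06. TGM3, a transglutaminase, differed in sign between the paths, with -2.99 and -2.41 on the diet S arrays and 0.74 over the others. MRPS15, a protein of the mitochondrial ribosome, was at -2.12 and -2.99 with -0.75 over the others.

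All 13 genes of these paragraphs were high in cow 7977 over cow 8041 at day +7, on the array that stood apart, for example P2RY12 at 4.47, FAS at 3.94, SEMA4D at 3.88, CPB2 at 4.69 and DGAT2 at 2.71. Its part in the values of the other path was not tested further. Without it the estimates were -2.47 for P2RY12, -1.58 for FAS, -1.81 for SEMA4D, -3.64 for CPB2 and -1.47 for DGAT2. Over the omission of each array in turn, P2RY12 ranged from -2.94 to -1.90 and CPB2 from -4.28 to -2.65.

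**Figure D2:**
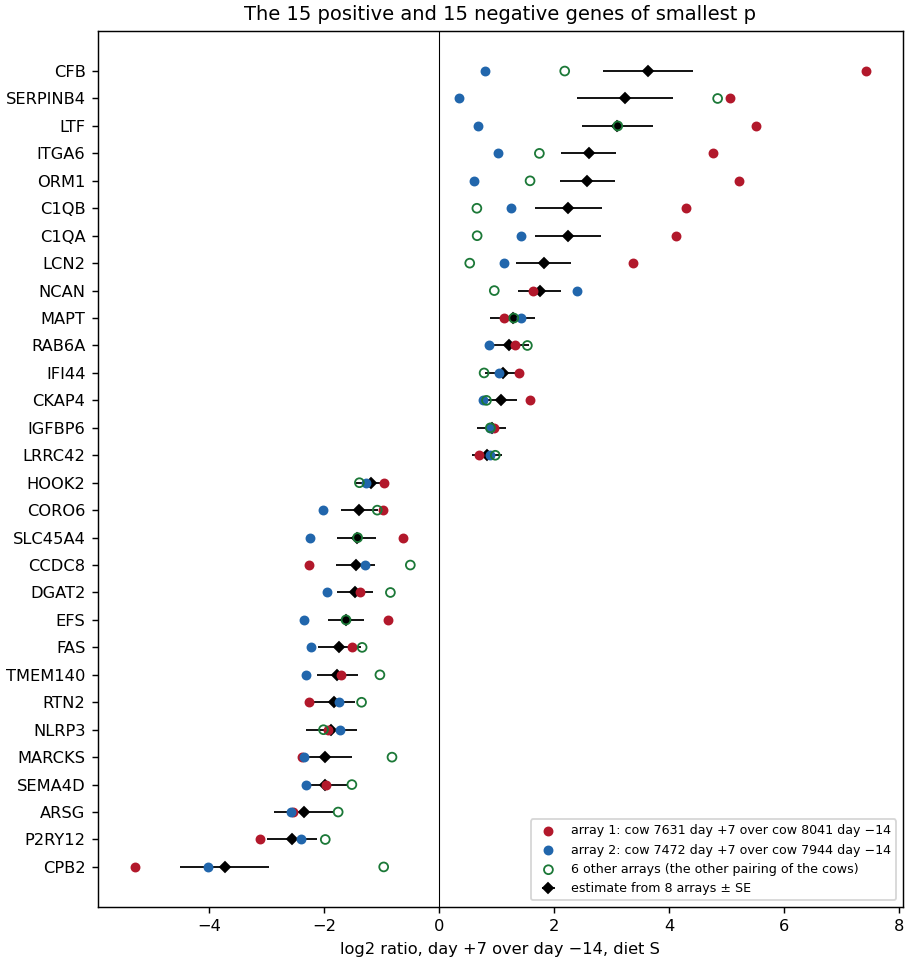
Log2 ratio of day +7 over day -14 in diet S (horizontal) for the 15 positive and 15 negative named genes of smallest unadjusted p: array 1 in red, array 2 in blue, the path over the 6 other arrays as open green circles, and the 8-array estimate ± SE as black diamonds. P2RY12 has both arrays close together at -3.12 and -2.39, while LTF runs from 0.67 on array 2 to 5.52 on array 1.

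Genes positive on both arrays included several secreted defence proteins, whose ratios were far higher on array 1. ORM1, the acute-phase protein alpha-1-acid glycoprotein, was at 5.21 on array 1, 0.61 on array 2 and 1.58 over the 6 other arrays, an estimate of 2.58 ± 0.47 (limma, adjusted p = 0.999). CFB, complement factor B of the alternative pathway, was at 7.42, 0.79 and 2.18 (3.63 ± 0.78). LTF, the iron-binding lactoferrin of specific granules, was at 5.52, 0.67 and 3.10 (3.10 ± 0.61). For these 3 genes the arrays differed by more than 4 log2 units, and LTF was read from dim features (low spot brightness).

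LCN2, the siderophore-binding lipocalin of the same granules, was at 3.37 and 1.13, with 0.53 over the others. C1QA and C1QB, chains of the complement starter C1q that macrophages and monocytes make, stood at 4.12 and 1.42 and at 4.30 and 1.25, both with 0.66 over the others. DMBT1, a scavenger receptor protein that binds bacteria, had the highest ratio of them on array 1, 8.86, with 1.89 on array 2 and -0.66 over the others. ITGA6, an integrin chain for laminin, was at 4.75, 1.01 and 1.74, from a dim feature. CKAP4 and IFI44 had smaller ratios and less difference between arrays. CKAP4, a membrane protein of the endoplasmic reticulum, was at 1.57, 0.76 and 0.82 (1.08 ± 0.28). IFI44, an interferon-induced gene, was at 1.39, 1.04 and 0.78 (1.11 ± 0.31), opposite to 30 of the 42 genes of its list, and was dim.

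The granule and antimicrobial list gave the widest gap between the 2 arrays. Of its 21 measured members 19 were positive on array 1 and 4 on array 2, with medians of 4.69 and -0.69, against -0.05 and 0.02 over all rows. By the 8-array estimate 17 were positive (52.7% of all rows were), with a median of 1.81, and the path over the 6 other arrays had a median of 0.76. An unadjusted p under 0.05 was reached by 5 members on the positive side (0.795% of all rows), LTF, LCN2, ORM1, CATHL6 and MMP9. None reached it on the negative side (3.31% of all rows), and none passed the adjusted threshold. The cathelicidins, precursors of antimicrobial peptides, had large ratios on array 1: CATHL2 was at 9.12 there and at -1.05 on array 2, CATHL6 at 8.17 and -0.69, and CATHL4 at 6.19 and -0.53. CATHL1, added after its values were seen, was at 6.94 and -1.99, with -1.81 over the 6 others (1.40 ± 1.48, and -0.53 without cow 8041). Their signs opposed each other between the arrays, and all 4 were read from dim features; cathelicidin genes are near copies of each other, so their ratios are uncertain.

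MMP9, the gelatinase of tertiary granules, was at 4.69 and -0.23, but at 3.64 over the 6 other arrays (estimate 2.58 ± 1.06). ELANE, elastase of primary granules, made early in the marrow, went the other way, at -1.07 and -2.73 with -1.23 over the others (-1.73 ± 0.77). Without array 1 the list median was 0.22, and without array 2 it was 2.41. Without both arrays of cow 8041, whose day -14 sample is the denominator of array 1, it was 0.74. The day and the cows of array 1 cannot be told apart for these genes.

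Acute-phase and calgranulin genes followed the same pattern. All 8 measured members were positive on array 1 (median 3.34) and 3 on array 2 (median -0.19), and all 8 estimates were positive with a median of 1.25, or 0.41 without cow 8041. The list shares LCN2 and ORM1, its 2 members at an unadjusted p under 0.05, with the granule list. Both were positive, as were 0.795% of all rows at such a p. HP, haptoglobin, which binds free haemoglobin, was at 6.40 and 1.37, with 0.76 over the 6 others (3.11 ± 1.48). S100A8 and S100A9, the 2 chains of calprotectin, stood at 3.27 and -1.17 and at 3.32 and -1.14, with 1.39 and 2.17 over the others. S100A12, the third calgranulin, was at 1.63 and -0.38. All 3 of its features and that of S100A9 neared the 16-bit scanner limit on a diet S array, so those ratios may be compressed.

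**Figure D3:**
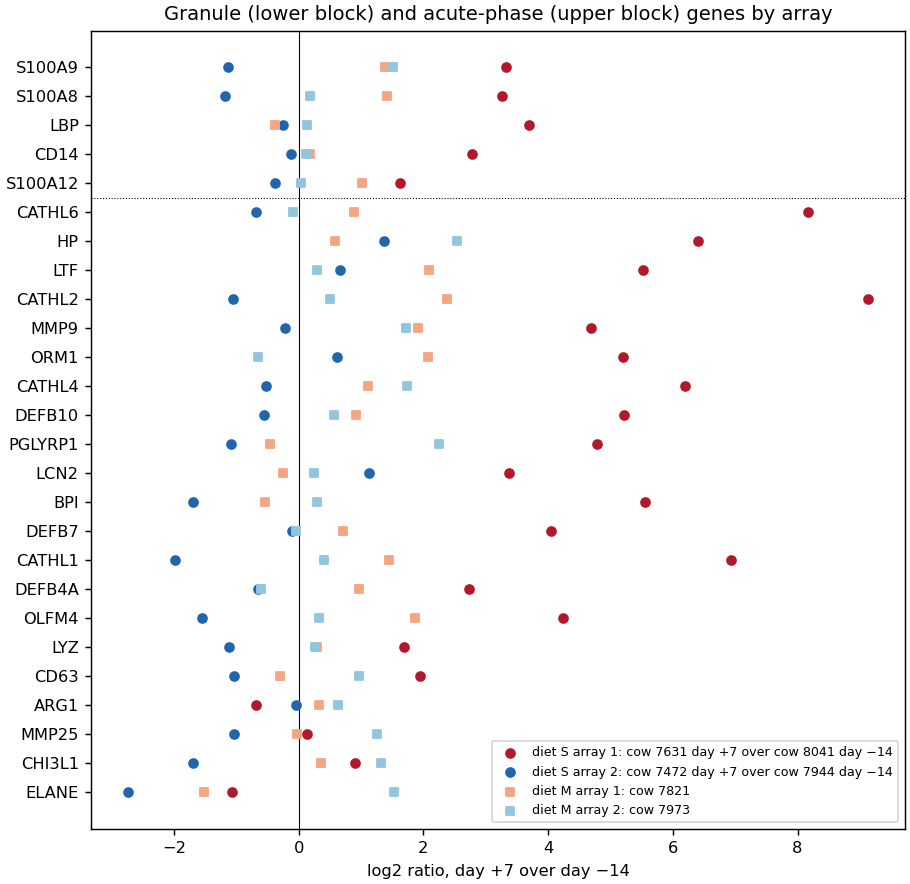
Log2 ratio of day +7 over day -14 (horizontal) for the measured members of the granule list (lower block) and the acute-phase list (upper block), on diet S arrays 1 (red) and 2 (blue) and on the diet M arrays of cow 7821 (orange squares) and cow 7973 (light blue squares). CATHL2 reaches 9.12 on array 1 and -1.05 on array 2.

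Markers of other cells moved between the 2 arrays too. T cell and NK markers had a median of 1.02 on array 1 (21 of 27 positive) and -1.06 on array 2 (2 positive), B cell markers -0.55 and 1.32, monocyte markers 2.66 and -0.25, platelet markers 0.71 and -1.52, and red blood cell markers 1.18 and -0.39. Each of these 5 lists changed sign between the arrays, as the granule list did. Their 8-array medians were -0.11, 0.26, 0.76, -0.20 and 0.14. The part of other cells in the granule, acute-phase and receptor results was not tested. Within the lists, CD3D of the T cell receptor was at -0.06 and -2.04, and the cytotoxic protease GZMB at 0.16 and -1.64. POU2AF1, a B cell coactivator, was at 0.18 and 1.69, and PF4, a chemokine of platelet granules, at 3.71 and -1.56. CD3D, GZMB and POU2AF1 were picked by smallest p and lay away from their list medians on array 1. They therefore show the change of sign of their lists weakly or not at all. Among monocyte markers C1QC was at 3.96 and 0.76, whereas CD68, a lysosomal protein of phagocytes, was at -1.49 and -1.55 with -0.68 over the 6 others (-1.31 ± 0.45).

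Eosinophil and basophil markers were the only cell type list with 0 positive estimates among its measured members. All 7 estimates were negative, with a median of -1.14, and the arrays had medians of -0.85 and -1.66. On array 1 some members were positive, GATA2 among them. None had an unadjusted p under 0.05. HRH4, the histamine H4 receptor, was at -1.46, -1.48 and -1.66 on array 1, array 2 and the 6 others (-1.52 ± 0.70). ALOX15, the 15-lipoxygenase of eosinophils, was at -3.35, -1.73 and -3.50 (-2.78 ± 1.23). CCR3, the eotaxin receptor, was at -0.85, -1.84 and -5.19 (-2.31 ± 1.40), and GATA2, a transcription factor of the basophil and mast cell line, at 0.44, -1.66 and -2.72. On the array that stood apart these 4 genes were at 3.80, 5.87, 8.25 and 6.56; without it the list median was -1.06, CCR3 was at -1.36 and ALOX15 at -2.07. Without both arrays of cow 8041 the list median was -0.73, ALOX15 was at -0.73, HRH4 at -0.70 and CCR3 at -1.15. In diet M the list was negative as well, with medians of -1.98 and -1.01 on its arrays.

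Markers of mature neutrophils were not of one sign. Of 13 markers 8 were positive on array 1 and 0 on array 2 (medians 1.20 and -0.98), with a median estimate of -0.02, which was 0.04 with median centring. CXCR1, an interleukin-8 receptor, was at -1.62 and -2.38 with -0.41 over the 6 others (-1.60 ± 0.56). BASP1, a membrane protein, was at -1.09 and -2.003 (-1.20 ± 0.37) and MXD1, a MYC antagonist of differentiated cells, at -0.33 and -1.66 (-0.97 ± 0.39). ALPL, alkaline phosphatase, lay opposite at 3.85 and -0.98 with 2.44 over the others, and so did IL1R2, the decoy receptor for interleukin 1, at 4.73 and -0.16 with 1.19. The list median was 0.03 without the array that stood apart and 0.58 with the ratio of array 2 turned.

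For adhesion and chemotaxis, 15 of 20 estimates were negative (median -0.22, array medians 0.17 and -0.81). SELPLG, the selectin ligand on which neutrophils roll, was at -0.32 and -1.57 (-0.84 ± 0.37), and JAML, an adhesion molecule for crossing epithelium, at -2.005 and -1.66 (-1.59 ± 0.65). Toll-like receptor and NF-kB genes were negative in 27 of 34 estimates with a median of -0.22 (arrays -0.01 and -0.42). The shared adaptor MYD88 was at -0.56, -1.43 and -0.78 (-0.94 ± 0.29) and the flagellin receptor TLR5 at -0.04, -1.05 and -0.96 (-0.65 ± 0.27). Counts at an unadjusted p under 0.05 were 2 negative members in each list and 0 positive, against 3.31% and 0.795% of all rows.

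The inflammasome and interleukin-1 list was mixed, with 7 of 11 estimates negative and a median of -0.11 (arrays -0.05 and -0.52). NLRP3, the inflammasome sensor, was at -1.92, -1.73 and -2.01 over the 2 arrays and the other path (-1.87 ± 0.45), from a dim feature. IL1B, the cytokine the inflammasome releases, had -2.13 on array 1 and -2.10 on array 2 but -0.17 over the 6 others (-1.63 ± 0.48), and all 4 of its features were negative. CASP4, an inflammatory caspase, repeated that pattern at -1.51, -1.48 and -0.09 (-1.14 ± 0.33). IL1RN, the receptor antagonist, was at -0.74 and -1.96 (-1.19 ± 0.45). These 4 of 11 members had a negative estimate at an unadjusted p under 0.05 (3.31% of all rows), none a positive one (0.795%), and IL1R2 was the highest member at 2.01 ± 1.06. In the cytokine list 7 of 11 were positive with a median of 0.08, which was -0.19 with the values as deposited; IL15, a growth factor of NK cells, was its lowest at -1.49 ± 0.56 (-0.67 and -2.02).

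Interferon-stimulated genes, the antiviral programme, were negative in 30 of 42 estimates, with a median of -0.39 and array medians of -0.27 and -0.59. At an unadjusted p under 0.05 there were 11 negative members (3.31% of all rows) and 1 positive one (0.795%), IFI44. IFIT2, which blocks viral translation, was at -3.20 and -1.83 but at -0.11 over the 6 others (-1.91 ± 0.61). ISG20, an RNA exonuclease, stood at -1.46 and -1.78 with -0.17 (-1.26 ± 0.34) and STAT2, a factor that carries the interferon signal, at -0.45 and -1.98 with -0.55 (-1.05 ± 0.34). IFIT2 and ISG20 were low on both diet S arrays and closer to 0 on the other path, whose list median was -0.13; STAT2 was low mainly on array 2. With the ratio of array 2 turned the list median was 0.13.

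Glucocorticoid-responsive genes, of interest because cortisol peaks at calving, were mixed. SGK1, a kinase induced by the hormone, was at -1.53 and -2.99 with -0.64 over the 6 others (-1.86 ± 0.50), and TSC22D3 (GILZ), a classical target, at -1.15 and -1.90 with -0.49 (-1.27 ± 0.38). The glucocorticoid receptor NR3C1 was at -1.04, -0.78 and -0.43 (-0.79 ± 0.27), and TXNIP, an inhibitor of thioredoxin, at -1.63 and -1.07 (-1.04 ± 0.35). FKBP5, another classical target, was positive at 1.38, 0.43 and 0.41 (0.78 ± 0.33). Of 26 members 4 had an unadjusted p under 0.05 on the negative side (3.31% of all rows) and 1, FKBP5, on the positive side (0.795%), and the list median was -0.13.

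In the lipid mediator list PTGES, prostaglandin E synthase, was at -1.26, -1.69 and -1.66 (-1.52 ± 0.53), from a dim feature. Oxidase and antioxidant genes were positive in 19 of 30 (median 0.14, and -0.05 with the values as deposited). PRDX1 had the smallest p of the list, at 0.46 and 0.81 with 0.98 over the 6 others (0.72 ± 0.29). HMOX1, which breaks down haem, was at 4.38 and -0.10 with 0.02 over the others (1.61 ± 0.87). The oxidase subunit NCF1 was at -0.28 and -1.38.

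Housekeeping lists had small ratios, mostly of 1 sign. Of 68 cytosolic ribosomal protein genes 67 had a positive estimate, with a median of 0.32 (SD over members 0.13); 39 were positive on array 1 (median 0.08) and 68 on array 2 (median 0.66), and the path over the 6 others gave 0.17. RPL24 of the large subunit was at 0.43 and 0.94 with 0.28 (0.58 ± 0.29) and RPL12 at 0.31 and 0.94 with 0.33 (0.55 ± 0.29). No member had an unadjusted p under 0.05. The members share many traits, such as high signal, so their number does not stand for replicates.

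Mitochondrial genes had like values. Oxidative phosphorylation was positive in 63 of 72, with a median of 0.26 and array medians of 0.28 and 0.36; ATP5PO of ATP synthase was at 0.38, 0.75 and 0.52 (0.55 ± 0.26) and COX6C of complex IV at 0.44, 0.62 and 0.45 (0.51 ± 0.27). Mitochondrial ribosomal proteins were positive in 65 of 74 (median 0.25, arrays 0.10 and 0.67), with MRPS15 the lowest of 9 negative members. The TCA cycle was positive in 19 of 23 (median 0.22, and -0.01 with the values as deposited), and the proteasome in 34 of 44 (median 0.14, and -0.06 as deposited), with its ATPase PSMC5 at 0.25, 0.92 and 0.34. With the values as deposited the median of all rows was -0.22 against 0.02 after the brightness correction, so these lists lay above the median of all rows in both. With the ratio of array 2 turned, the medians of these 5 lists were -0.17, -0.01, -0.19, -0.20 and -0.03, in the order given.

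Fuel and lipid genes showed no single sign. Of the genes for fatty acid oxidation and other PPAR targets, 23 of 29 had a positive estimate (median 0.20, and -0.05 as deposited), with PDK4, the kinase that spares glucose by shutting pyruvate dehydrogenase, at 3.19 and 0.75 but -0.57 over the 6 others (1.34 ± 0.84). Glycolysis was positive in 18 of 26 (median 0.18, and -0.01 as deposited; arrays 0.80 and -0.37), with LDHB at 0.71, 0.54 and 0.56. In lipid synthesis, 22 of 31 were positive (median 0.12, and -0.08 as deposited). Its sterol enzyme SQLE was at 0.30, 0.87 and 0.75 (0.63 ± 0.31), and the cholesterol exporter ABCA1 at 0.37, 1.17 and 1.90 (1.05 ± 0.54).

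Of 35 genes of the unfolded protein response and heat shock, 22 had a positive estimate (median 0.30, arrays 0.38 and 0.15), against 52.7% of all rows. At an unadjusted p under 0.05 there was 1 positive member, PDIA4 (0.795% of all rows), and 1 negative one, DDIT3 (3.31%). PDIA4, a disulfide isomerase, was at 1.01, 0.89 and 0.89 (0.93 ± 0.35, and 0.40 without cow 8041), and CANX, the calnexin chaperone, at 0.59, 0.56 and 0.61 (0.59 ± 0.26), each with all features positive. The stress transcription factors DDIT3 (CHOP) and ATF3 were negative, at -0.96 and -1.18 (-0.83 ± 0.32) and at -0.41 and -2.45 (-1.50 ± 0.67). Both arrays and the other path lay within 0.2 log2 units of each other for PDIA4 and CANX, which were picked by smallest p. In the cell cycle list 19 of 29 were positive (median 0.28; 52.7% of all rows were positive) and 4 had an unadjusted p under 0.05, all positive (0.795% of all rows) and all read from dim features; RRM2, a subunit of ribonucleotide reductase, was at 1.25 and 1.44 with 0.40 (1.11 ± 0.44), and CDC20, an activator of the mitotic ubiquitin ligase, at 1.28 and 1.65 with -0.23 (1.04 ± 0.39). Without cow 8041 they were at 0.53 and 0.47.

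**Figure D4:**
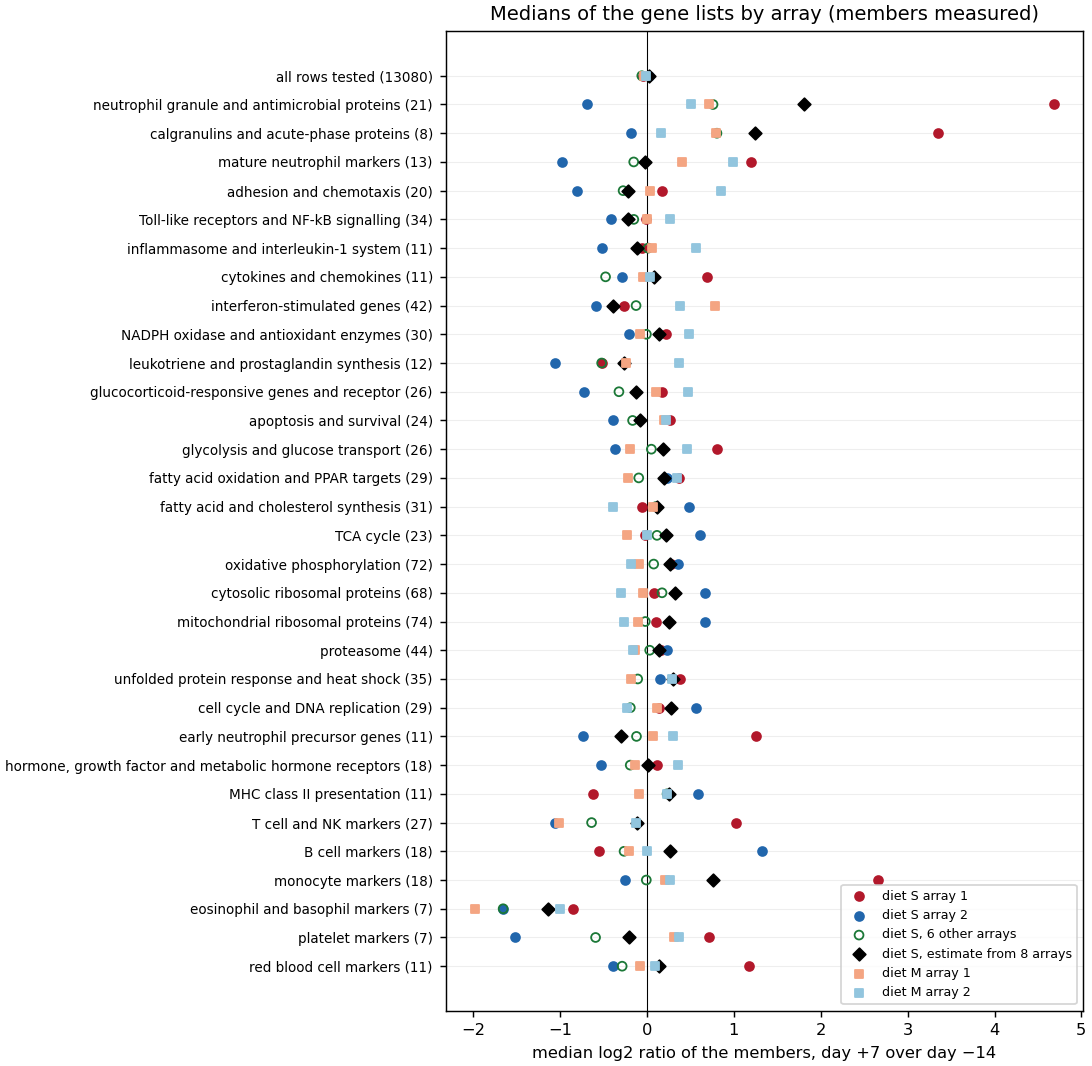
Median log2 ratio of day +7 over day -14 (horizontal) of the measured members of each gene list, on diet S arrays 1 (red) and 2 (blue), the path over the 6 other arrays (open green), the 8-array diet S estimate (black) and the 2 diet M arrays (squares). The granule list spans from -0.69 to 4.69 between the diet S arrays, while the lists on oxidative phosphorylation and ribosomal proteins lie close to 0 and positive on both.

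Diet M served as the comparison, with the same days measured in the same cow on each array. On the diet S arrays the days came from different cows. A difference between the diets therefore cannot be told apart from one between cows. The test of the difference, day change in diet S minus that in diet M, called no row (0% of 13080 at an adjusted p under 0.05, smallest adjusted p 0.716). At an unadjusted p under 0.05, 109 rows (0.833%) were positive and 723 (5.53%) negative. Without the array that stood apart there were 101 and 532, and without the second diet M array 48 and 382. Both day changes rest on the same loop of arrays, so the 2 estimates share data.

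Of the 255 rows at least 2-fold negative on both diet S arrays, 155 had a positive estimate in diet M, as did 6821 of all 13080 rows. Among the genes negative in diet S and positive on both diet M arrays, 8 are given here as examples. P2RY12 was at 0.25 and 0.37 on the diet M arrays, a difference between the diets of -2.68 ± 0.50 (limma, adjusted p = 0.716). SEMA4D was at 0.86 and 0.30 (difference -2.41 ± 0.46), FAS at 0.49 and 0.33 (-2.02 ± 0.43) and DGAT2 at 1.11 and 0.36 (-1.99 ± 0.36). ISG20 was at 0.96 and 0.99 (-1.87 ± 0.39), MXD1 at 1.01 and 1.37 (-2.12 ± 0.45), MYD88 at 0.86 and 0.52 (-1.58 ± 0.34) and CD68 at 0.66 and 1.46 (-2.16 ± 0.51). For these 8 genes the diet S arrays lay under both diet M arrays, which follows from how they were picked and is no test of a difference. The array that stood apart enters each of these differences. All 8 genes were high on it, from 2.35 for ISG20 to 4.47 for P2RY12. Its part in the 8 differences was not tested gene by gene. Interferon-stimulated genes had list medians of 0.78 and 0.38 in diet M against -0.27 and -0.59 in diet S. Of their 42 members 21 had a negative difference at an unadjusted p under 0.05, where 5.53% of all rows did. The members were read on the same 8 arrays, so their number does not stand for replicates.

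Eosinophil genes were negative in both diets. ALOX15 was at -3.02 and -2.19 in diet M (difference -0.41 ± 1.42) and HRH4 at -1.98 and -1.21 (0.03 ± 0.81). HP was positive in both, at 0.58 and 2.54 in diet M (0.77 ± 1.71). Standard errors of 0.81 to 1.71 leave room for differences of either sign. The granule list had diet M medians of 0.72 and 0.50, both between those of the 2 diet S arrays.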

How the data were processed

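The authors deposited log2 ratios of the 2 channels of 8 Agilent 2-colour bovine arrays (43803 features), with 200 ng of RNA per labelling per the labels. For scanner, image software, background step, spot filter and slide, nothing is given in the sources used here. The values were not normalised: 97.8 to 98.5% of them were ratios of 2 whole numbers up to 10000 (tolerance 1e-09 on the log2 scale), and 1.4 to 2.0% were after a shift. Spot brightness was the geometric mean of the 2 recovered numbers, a lower bound. Between 25.6 and 36.8% of an array's features were blank. Here each array was corrected by loess on the median brightness of a feature (span 0.4, degree 1, 4 iterations). Only features measured on each of the 8 arrays were kept (19981) and averaged per symbol, which left 13080 rows, 8503 with a symbol. Symbols came from the platform annotation updated through RefSeq genes (assembly ARS-UCD2.0), used for names only; 30788 features had 1 symbol and 13015 none. Of 4213 genes with several features, 33.3% had features of both signs.

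A loop model of the 4 groups of diet and day with a dye term was fitted by limma 3.58.1 in R 4.3.3 (4 residual degrees of freedom, two-sided, Benjamini-Hochberg over all rows, threshold 0.05). The SE is the moderated standard error; its median was 0.34. All p-values reflect only the spread among these arrays, the number of arrays limits the precision, and samples of a cow were taken as independent in the fit. Members of a list were read on the same arrays, so a count of members is not a count of replicates. The model was tested on simulated data. Members, gene lists and rules were chosen with earlier results of these data known. Named genes were the 15 positive and 15 negative genes of smallest p with 1 sign on both diet S arrays, the 10 of each sign with the largest smaller ratio, the 4 of smallest p in each of 31 lists, and a fixed panel of neutrophil genes; only some of these are named, and CATHL1 was added. A dim feature is one with a brightness under 64. Besides the genes marked as dim where they are named, ITGAM, TLR5, IL15, GATA2 and ABCA1 were dim. Alternatives were the values as deposited, median centring, a brightness minimum of 64, features with a value on both diet S arrays, single features, no dye term, array weights, the cow as replicate block, subsets of arrays and array 2 turned.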

Additional observations from a re-analysis of the deposited data

Results flagged for a closer look

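Some gene lists had a median of 1 sign on both diet S arrays and of the opposite sign on both diet M arrays. The difference between the diets was not tested for the lists. Interferon-stimulated genes had a median difference, diet S minus diet M, of -0.96 over members, and the inflammasome and interleukin-1 system one of -0.47. On the positive side lay the cytosolic ribosomal proteins at 0.42, mitochondrial ribosomal proteins at 0.37, oxidative phosphorylation at 0.33 and the proteasome at 0.23. The median difference over all rows was 0.04. For the interleukin-1 list the array medians closest to 0 were -0.05 in diet S and 0.06 in diet M. The median of all rows on diet S array 1 was also -0.05. Cytosolic ribosomal proteins had a median at least as close to 0 on the first diet M array.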

How the results depend on the processing

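The count of 0 rows called with limma at an adjusted p under 0.05 held in every alternative run, for the day change in diet S and for its difference from diet M. The smallest adjusted p was 0.0928, without the first array that pairs the diets at day +7. The number of rows at an unadjusted p under 0.05, 537 in the report, was 939 with the values as deposited (29 positive and 910 negative), 895 with array weights, 281 without both arrays of cow 8041, 244 with both paths weighted equally and 154 over the 6 other arrays alone. As each array was left out it ran from 282 without diet S array 1 to 839 without the second diet M array. With the cow as replicate block it was 646, and with array 2 turned 478. The 293 rows past 2-fold in 1 direction on both diet S arrays became 506 with the values as deposited, 181 at a brightness of at least 64, 741 among features with a value on both diet S arrays and 462 over single features; without 1 of these 2 arrays the count cannot be made. The 832 rows at an unadjusted p under 0.05 for the difference between the diets became 1222 over single features, 484 without cow 8041 and 181 with array 2 turned, and ran from 430 without the second diet M array to 1221 without the first. The causes were not tested, except that other settings hold other numbers of rows.

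Of 85 named genes (PRDX1 was not among them), none turned its sign under the values as deposited, median centring or the brightness minimum (70 of them measured). None did so with features on both diet S arrays, no dye term, array weights, the cow block, the 2 diet S arrays alone or equal paths. Without cow 8041, which removes diet S array 1, CATHL1 turned to -0.53, and 33 genes with it included shrank by over 1.5 times or turned, while none grew by as much; PDK4 went from 1.34 to 0.05. With array 2 turned, 29 did. Those that became positive were DGAT2 (0.009), MRPS15 (0.14), ELANE (0.32), CXCR1 (0.18), BASP1 (0.31), MXD1 (0.28), SELPLG (0.34), MYD88 (0.13), TLR5 (0.14), IL1RN (0.28), IL15 (0.021), ISG20 (0.076), STAT2 (0.43), SGK1 (0.39), TSC22D3 (0.16), NCF1 (0.36), ATF3 (0.33), DDIT3 (0.054), CD3D (0.58), GZMB (0.22), GATA2 (0.11) and CD80 (0.10). Those that became negative were SQLE (-0.027), ATP5PO (-0.008), RPL24 (-0.12), RPL12 (-0.15), PSMC5 (-0.16), CDC20 (-0.20) and POU2AF1 (-0.74). Over the 6 other arrays alone TGM3 was at 0.74, DMBT1 at -0.66, CATHL1 at -1.81, CATHL2 at -0.34, PDK4 at -0.57, CDC20 at -0.23, POU2AF1 at -0.70 and NR1H3 at -0.17. Leaving out single arrays took CATHL1 from -1.20 to 2.41, PDK4 from -0.25 to 1.96 and POU2AF1 from -0.13 to 0.82. The equal paths and the 6 other arrays alone were chosen after the data were seen.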

Other observations

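Genes for antigen display and metabolic receptors were measured too. MHC class II presentation genes were positive in 9 of 11 estimates with a median of 0.26, which was -0.03 with the values as deposited, and their array medians were -0.62 and 0.58. CD80, a costimulatory ligand for T cells, was the lowest of the list at -0.69, -1.81 and -1.28 on array 1, array 2 and the 6 other arrays (-1.26 ± 0.31, limma, adjusted p = 0.999), from a dim feature. Receptors for hormones and growth factors had a median of 0.01 over 18 members. Among them NR1H3, the oxysterol receptor LXR alpha, stood at 4.33 on array 1, 0.28 on array 2 and -0.17 over the 6 others (1.68 ± 0.71). Genes of apoptosis and survival had a median of -0.08 over 24 members, with arrays at 0.26 and -0.39, and the genes of early neutrophil precursors one of -0.30 over 11, with arrays at 1.26 and -0.74. Lipid mediator genes had a median of -0.26 over 12 members, with arrays at -0.51 and -1.06.

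The difference between the direct and the 6-array path was fitted as a term of its own. It called 0 rows at an adjusted p under 0.05 with limma, and 235 rows (1.8%) had an unadjusted p under 0.05.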
